A study of Mus musculus with 12 samples.

Results

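Mouse embryonic stem cells exposed to a high dose of hydrogen peroxide were compared with cells exposed to a low dose, across all genes on an expression array. The comparison takes 9 of the 12 arrays in the series: 5 from cells given 5 mM peroxide for 30 min (high dose) and 4 from cells given 100 µM for 15 min (low dose). The 3 arrays of cells held in phosphate-buffered saline (PBS) without peroxide were not used. The question is how the transcript levels of cells after a severe oxidant exposure differ from those after a mild one. The groups differ in both concentration and length of exposure. Any difference between them in culture or array run could not be separated from the treatments. No value here says which of the groups had moved away from unexposed cells. Below, a rise, a fall or a pair of values runs from the low dose to the high dose only.

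All 9 arrays came from clone C2, a single clone of the E14tg2a embryonic stem cell line in which a pair of recognition sites for the endonuclease I-SceI had been targeted. The peroxide was given in PBS. Both groups then spent 1 h back in maintenance medium before total RNA was taken. The labels do not say whether replicate arrays came from separate cultures, so a p-value is set against the spread of these arrays alone, which may in part be technical. RNA was hybridised to Affymetrix MG_U74Av2 arrays, which read a transcript through groups of short oligonucleotides called probe sets. Each value is a MAS5 signal, a linear brightness that weighs matched against mismatched oligonucleotides.

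Hydrogen peroxide crosses membranes and oxidises cysteines, iron centres and DNA. Cells remove it with catalase, peroxiredoxins and glutathione peroxidases. They answer damage through transcription factors such as p53 (DNA damage), Nrf2 (thiol oxidation), HSF1 (misfolded protein) and ATF4 (blocked translation initiation), and through the immediate-early genes, which are transcribed within minutes of a stimulus without new protein synthesis. Embryonic stem cell cultures are held undifferentiated by the Pou5f1, Sox2 and Nanog circuit, and some cells in such cultures express genes of the primitive endoderm, the epithelium that lines the blastocyst cavity and later forms yolk sac.

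Arrays of the same group correlated with r between 0.960 and 0.976 over probe sets (16 pairs), and arrays of different groups with r between 0.922 and 0.945 (20 pairs). The 3′ to 5′ signal ratio of Actb, a measure of RNA integrity, was 1.32 ± 0.166 (SD, n = 4) on the low-dose arrays and 1.23 ± 0.162 (n = 5) on the high-dose arrays (p = 0.437, exact two-sided permutation test; smallest possible p 0.00794). The cells carried pluripotency transcripts, as their label says, with Pou5f1 between 3326 and 6468 units and Nanog between 4298 and 6207 units on every array. Bright probe sets were shifted towards the high-dose arrays: the median difference (high minus low, log2) was 0.28 for the 129 probe sets above 5000 units, against -0.04 for those of 200 to 500 units. The part of this shift in the changes of bright genes was not tested.

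Of 6406 genes tested, 1878 differed between the doses at an adjusted p below 0.05 (29.3% of genes, limma with Benjamini-Hochberg adjustment over 8695 probe sets). At the high dose 894 were higher (14.0%) and 984 were lower (15.4%). Each list count below is to be set beside these shares of all genes. The difference was at least 2-fold for 387 genes, of which 147 were higher and 240 lower. The arrays of the 2 groups did not overlap for 1652 genes (25.8%). Over all genes the median log2 difference was -0.04. By probe set, 46.7% of the 2426 called were higher at the high dose; after scaling to a common median in place of the deposited scaling, 61.8% of 2305 were, and the median of all genes moved from -0.043 to 0.062. Of the 397 called genes read by more than 1 tested probe set, another probe set was called the same way for 125 and the opposite way for 24.

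**Figure D1:**
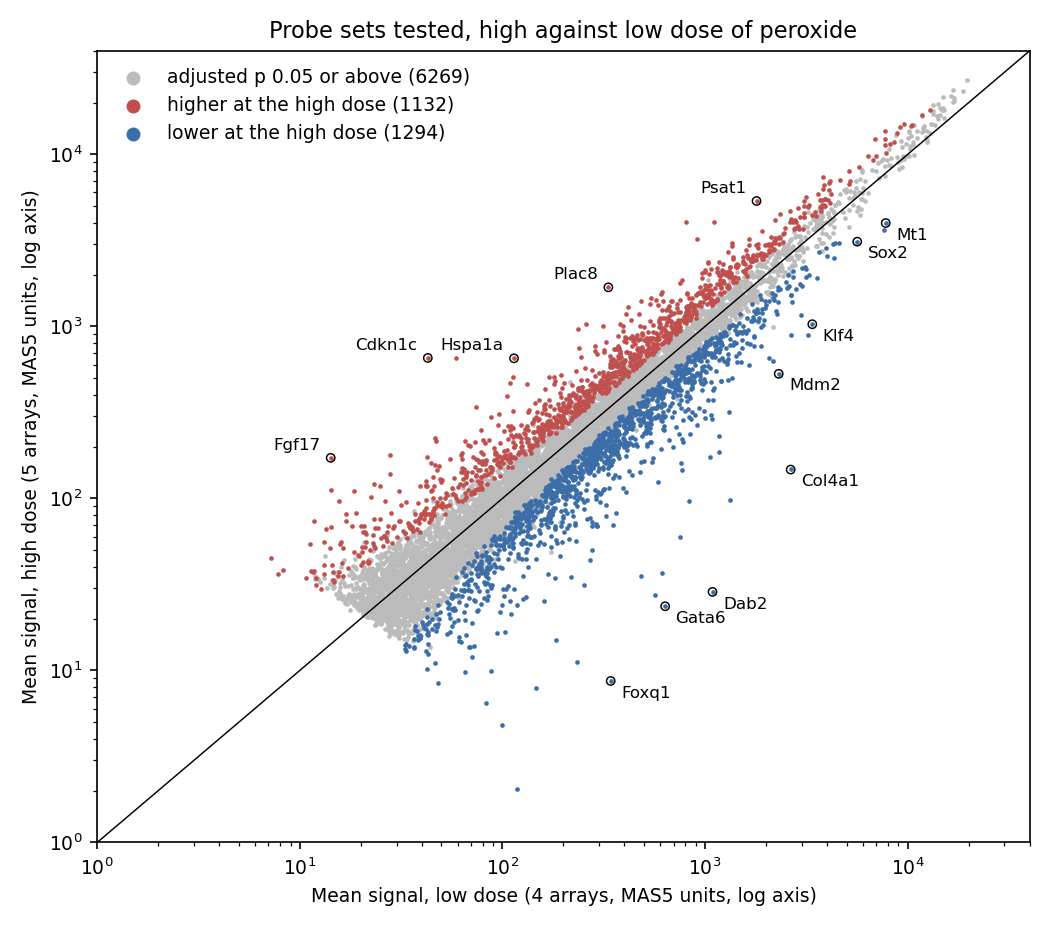
Mean signal of each tested probe set at the low dose (4 arrays) and the high dose (5 arrays), both on log axes, with the 1132 called higher in red and the 1294 called lower in blue. Points far from the diagonal lie mostly below it, with Dab2, Gata6, Col4a1 and Foxq1 among the farthest, while Cdkn1c, Fgf17 and Hspa1a lie far above it.

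The largest differences were in primitive and visceral endoderm transcripts, which were lower at the high dose than at the low dose. Of 29 measured markers of that lineage, 22 were lower and 1 was higher, with a median log2 difference of -1.65 against -0.04 for all genes. The summed log2 level of the 29 markers lay between 248 and 249 on the low-dose arrays and between 189.7 and 196 on the high-dose arrays (p = 0.00794, the smallest possible, exact two-sided permutation test; adjusted p = 0.0873 over 11 array measures). The list was chosen with earlier results of these data known, so this p-value is no independent support. Of 36 members on the array, 29 passed the filter on mean level, which a member can pass through its level in 1 group alone. In such bulk RNA, fewer cells of a type and less RNA per cell cannot be told apart.

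Among the lineage's transcription factors, Gata6, which specifies primitive endoderm, read 618, 745, 526 and 653 units on the low-dose arrays and 30.5, 8.61, 22.4, 21.4 and 35.1 units on the high-dose arrays. The lowest low-dose array was far above the highest high-dose array, and the fold was 19.5 (log2 -4.29 ± 0.23, SE; adjusted p = 2.1e-08). The other Gata6 probe sets gave log2 differences of -0.61 and -0.96. Foxa2, a forkhead factor of visceral and definitive endoderm, read between 220.2 and 262 units at the low dose and between 8.68 and 13.7 units at the high dose. Sox17, which acts downstream of Gata6, read 254 ± 27.9 units at the low dose and 31.3 ± 14.8 units at the high dose. Its other probe set was lower by 3.08 on the log2 scale. Foxq1, also a forkhead factor, went from 342 ± 81.5 to 8.68 ± 7.15 units, below the offset of 10.6 units that was added before taking logs, so the size of its fold depends on that offset. Sox7, a relative of Sox17, was 3.17-fold lower. Gata4, which works beside Gata6, read 282 ± 135 against 194 ± 48.7 units (low against high dose), with overlapping arrays (adjusted p = 0.27).

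Dab2, an endocytic adaptor needed for endoderm organisation, read 957, 1102, 1127 and 1167 units at the low dose and 14, 44.1, 31.4, 38.1 and 15.2 units at the high dose. This 29.4-fold difference was the largest of any gene (log2 -4.88 ± 0.23; adjusted p = 7e-09), and both other Dab2 probe sets were lower by log2 2.31 and 1.61. Pdgfra, the platelet-derived growth factor receptor that marks primitive endoderm cells, went from 569 ± 133 to 27.6 ± 17.4 units, although its other probe set differed by log2 -0.32 (adjusted p = 0.3). Cubn, the cubilin receptor for vitamin and protein uptake, read between 549 and 712 units at the low dose and between 24.6 and 66.8 units at the high dose. Its second probe set gave -0.16. Aqp8, a water channel, was 3.84-fold lower. Hs3st1, a heparan sulfate 3-O-sulfotransferase, read between 85.9 and 162 units at the low dose, and every high-dose value lay under the offset, the highest being 3.06 units.

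The basement membrane that endoderm cells lay down was read by several brighter probe sets. Col4a1, a type IV collagen chain, read 2793, 2553, 2675 and 2556 units at the low dose and 129.6, 139, 136, 197 and 136 units at the high dose. The groups were separated on every array and the fold was 17 (log2 -4.08 ± 0.13; adjusted p = 1.1e-10). Col4a2, the partner chain, was 12.1-fold lower, with low-dose arrays between 873 and 1582 units and high-dose arrays between 82.7 and 115 units. Sparc, a collagen-binding matrix protein, was 5.85-fold lower, and Serpinh1, the collagen chaperone Hsp47, was 6.04-fold lower. The laminin chains Lama1 and Lamb1, of the same sheet, were 4.07-fold and 3.13-fold lower. P4ha2 and P4ha1, prolyl 4-hydroxylases that modify collagen, were 3.08-fold and 2.07-fold lower. Lamc1, the laminin chain shared by many tissues, differed by log2 -0.03 and was not called.

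The exceptions within the list were few. Apoe, a lipid carrier that is not restricted to endoderm, was the 1 marker that was higher, at 6868 ± 471 units after the low dose and 12221 ± 1117 units after the high dose (log2 0.83 ± 0.12; adjusted p = 0.00015). Ttr and Afp, secreted products of more mature visceral endoderm, were dim in both groups: no array exceeded 39.5 units for Ttr or 36.8 units for Afp. The summed marker levels of other cell types overlapped between the groups. For fibroblasts (feeder cells) the summed log2 level was 106 against 103 (p = 0.222), for mesoderm, ectoderm and neural cells 108 against 112 (p = 0.103), and for trophoblast 56.7 against 57.5 (p = 0.683), by the same exact test. Of the 16 fibroblast markers 2 were higher and 4 lower, the latter count being 2 without low-dose array 1 or 2. The part of endoderm transcripts in the other gene groups described here was not tested.

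**Figure D2:**
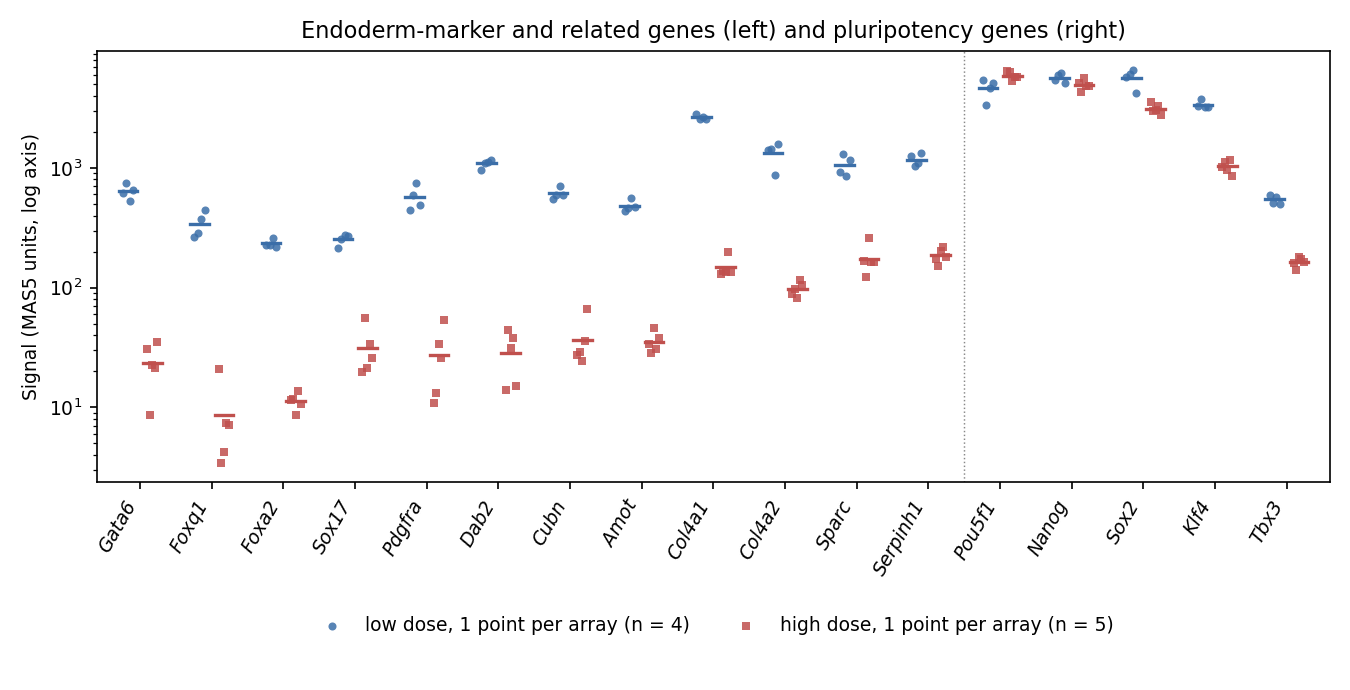
Signal on each array (log axis, MAS5 units) for 12 endoderm-marker and related genes, left of the dotted line, and 5 pluripotency genes, right of it; blue circles are the 4 low-dose arrays, red squares the 5 high-dose arrays, and bars the group means. The left-hand genes do not overlap between groups, whereas Pou5f1 and Nanog do. Of the 34 measured pluripotency genes, the 9 called higher at the high dose are not shown.

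Transcripts of the Hippo pathway list, which holds growth-control genes acting through the coactivator Yap1, were lower in 6 of 10 measured cases and higher in none (median -0.72). Amot, a membrane scaffold that binds Yap1, read between 440.2 and 557 units at the low dose and between 28.4 and 46.1 units at the high dose, a 10.8-fold difference. Its relative Amotl2 was 3.49-fold lower. Ccn2 and Ccn1 are secreted matricellular proteins transcribed by Yap1 with TEAD factors. Ccn2 read 855, 532, 767 and 880.1 units at the low dose and 177, 124, 152, 167 and 183 units at the high dose, a 4.46-fold difference without overlap. Ccn1 was 2.91-fold lower. The TEAD factors themselves, Tead1, Tead2 and Tead4, were not called, with log2 differences of -0.06, 0.02 and -0.06. Yap1 was lower by log2 0.49, a call that was lost with scaling to a common median (adjusted p = 0.075), and its other probe set, at -0.35, was not called.

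Targets of p53 were lower at the high dose in 9 of 16 measured cases and higher in 1, with a median of -0.59. p53 is stabilised by DNA damage and transcribes genes of cell cycle arrest, repair and death, including Mdm2, the ubiquitin ligase that degrades p53. Mdm2 read 2036, 2832, 2594 and 1770 units after the low dose and 421, 379.8, 721, 668 and 459 units after the high dose. Every low-dose array was above every high-dose array, and the fold was 4.35 (log2 -2.12 ± 0.20; adjusted p = 3.5e-06). Ccng1 (cyclin G1), Plk2 (a polo-like kinase) and Phlda3 (an inhibitor of Akt signalling) were 3.64-fold, 3.61-fold and 3.19-fold lower, with no overlap between the groups. For Plk2 the means were 3227 ± 407 and 887 ± 107 units. Cdkn1a, the cyclin-dependent kinase inhibitor p21, read 535, 409, 419 and 671 units at the low dose and 259, 274, 233, 213 and 225 units at the high dose (log2 -1.02 ± 0.15; adjusted p = 0.00023). Its other probe set gave -0.90. Btg2, an antiproliferative gene, and Perp, a junction protein linked to apoptosis, were 1.82-fold and 1.71-fold lower. The member that was higher was Xpc, the damage sensor of nucleotide excision repair, at 54.6 ± 11.5 and 91.8 ± 11.6 units. Gadd45a differed by log2 0.26 with overlapping arrays.

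The response element of p53 is built from a pair of decamer sites. Within 250 bases upstream of the RefSeq start (GRCm38.p6, both strands), 6 of the 12 p53-list genes with a promoter in the table held such a site (50%), against 8.2% of all 27025 genes. The stretches below are those of the 3 called members that held one, out of 7 called members with a promoter. This list was chosen for printing after the values were seen, the decamer is in capitals, and none overlapped another motif searched. A match describes the sequence only. They lie at chr10:117710910-117710969 (minus strand), chr11:40755437-40755496 (minus) and chr17:29090881-29090962 (plus).
Mdm2: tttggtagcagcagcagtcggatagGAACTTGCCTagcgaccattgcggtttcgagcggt
Ccng1: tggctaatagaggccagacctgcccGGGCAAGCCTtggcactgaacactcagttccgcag
Cdkn1a: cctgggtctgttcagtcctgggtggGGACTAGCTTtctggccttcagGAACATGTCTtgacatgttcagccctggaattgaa

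More immediate-early genes were lower than higher at the high dose. Of 19 transcription factors of this class 6 were lower (31.6%) and 2 higher (10.5%), with a median of -0.20. Of 17 signalling and feedback genes 5 were lower (29.4%) and 1 higher (5.88%), or 2 higher without low-dose array 2. Their median was -0.46. Of all genes 15.4% were lower and 14.0% higher. The CArG box, the serum response element of such genes, was found upstream of 1 of 13 and 1 of 15 members with a promoter in the table and of none of the called ones, against 1.6% of all genes. Atf3, a stress-induced bZIP factor, read 320.5, 318, 292 and 279 units at the low dose and 106, 89.1, 83.8, 94.9 and 101 units at the high dose. The ranges were narrow and apart, with a 2.97-fold difference (log2 -1.57 ± 0.13; adjusted p = 1.8e-06). Klf4 and Klf6 are zinc-finger factors that serum induces quickly, and Klf4 also belongs to the pluripotency circuit. Klf4 was 3.27-fold lower (3380 ± 241 against 1029 ± 122 units) and Klf6 2.15-fold lower (456 ± 3.61 against 208 ± 25.7 units). Nr4a1, an orphan nuclear receptor, was 1.57-fold lower.

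Fos, a subunit of AP-1, read 768, 616, 710.4 and 878 units at the low dose and 476, 322, 559.9, 605 and 462 units at the high dose, with no overlap (log2 -0.62 ± 0.17; adjusted p = 0.012), but the call was lost with scaling to a common median (adjusted p = 0.051) and in the fit to all 12 arrays (adjusted p = 0.052). Egr1 read 395 ± 85.5 and 345 ± 48.2 units and was not called (adjusted p = 0.43). Jun, the partner of Fos, was dim, at most 56.2 units on any array, and was not called at a log2 difference of -0.98 (adjusted p = 0.081). Bhlhe40, a circadian and hypoxia-responsive repressor, read 67.9 ± 18.6 units at the low dose and 205 ± 26.6 units at the high dose. Myc read 26 ± 4.25 and 60.4 ± 14.1 units. Among signalling genes, Sgk1, a serum- and glucocorticoid-induced kinase, was 1.94-fold lower. Zfp36l1, an RNA-decay factor, was 1.87-fold lower with overlapping arrays. Dusp1, a phosphatase of MAP kinases, read 884 ± 205 and 630 ± 151 units and was not called (adjusted p = 0.069).

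**Figure D3:**
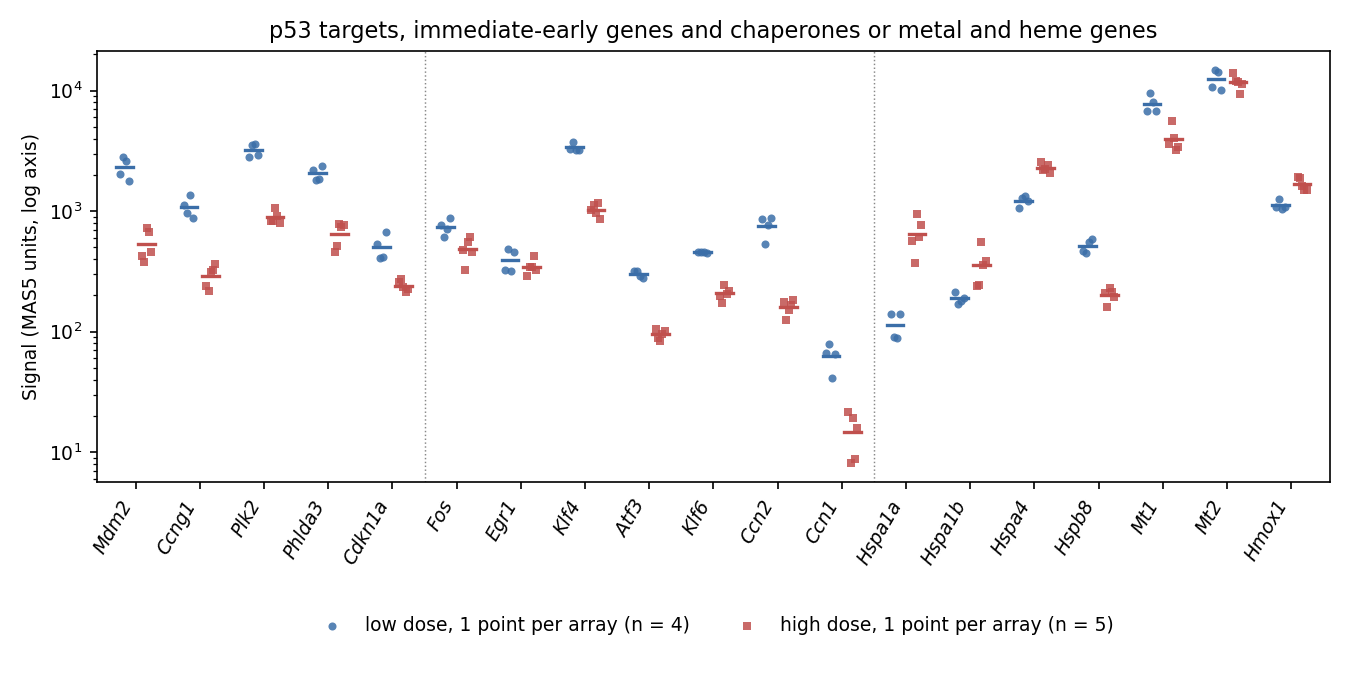
Signal on each array (log axis, MAS5 units) for p53 targets (left), immediate-early and related genes (middle), and chaperones with metal and heme genes (right); blue circles are low-dose arrays (n = 4), red squares high-dose arrays (n = 5) and bars group means. Mdm2, Plk2, Atf3 and Ccn2 are lower and Hspa1a is higher on all 5 high-dose arrays, while Egr1 and Mt2 overlap.

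The heat shock list moved both ways: 4 of 18 members were higher (22.2%) and 6 lower (33.3%), with a median of -0.13. Of all genes 14.0% were higher and 15.4% lower. Hspa1a, an inducible Hsp70 that refolds damaged protein, read 139, 90.4, 89.1 and 139 units at the low dose and 568, 369.7, 949.9, 611 and 763 units at the high dose. All 5 high-dose arrays were above all low-dose arrays, a 5.16-fold difference (log2 2.37 ± 0.23; adjusted p = 6.1e-06). Hspa1b, its near-identical neighbour, read 189 ± 18.7 and 355 ± 127 units and was 1.76-fold higher; because the coding sequences of the pair are almost the same, the probe sets may read both transcripts. Hspa4, an Hsp110-type nucleotide exchange factor, was 1.86-fold higher by its brightest probe set. Its other 4 gave log2 differences of -0.70 (called lower), 0.32 (called higher), 0.05 and -0.28 (not called). Hsp90aa1, the inducible cytosolic Hsp90, read between 7645 and 11062 units at the low dose and between 8633 and 17933 units at the high dose and was not called (adjusted p = 0.098).

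Hspb8, a small heat shock protein, read 465, 453, 554 and 589 units at the low dose and 209, 161, 229, 212 and 193 units at the high dose, a 2.49-fold difference. Bag3, which works with Hspb8 in selective autophagy, was 1.76-fold lower (its other probe set, at log2 -0.17, was not called), and Dnajb1, an Hsp40 partner of Hsp70, 1.59-fold lower. Dnaja1, another Hsp40, was lower by log2 0.41, a call lost with scaling to a common median (adjusted p = 0.17) and without low-dose array 2 or 3 or high-dose array 1, 2 or 4 (adjusted p between 0.051 and 0.09). Chordc1, an Hsp90 co-chaperone, was higher by log2 0.38, a call lost in 9 of 20 alternative settings, among them without low-dose array 1, 2 or 4 or high-dose array 1, 3 or 5 (adjusted p between 0.082 and 0.12). Another probe set of Chordc1, at log2 0.18, was not called. Serpinh1, the largest fall of this list, is the collagen chaperone described with the endoderm genes.

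The heat shock element bound by HSF1 was searched as GAANNTTC in the same upstream windows on both strands. It was present for 6 of 15 list members with a promoter in the table (40.0%), against 7.7% of all genes. Of the 9 called members with a promoter 3 held it. The members below are the called ones that hold it, with the element in capitals and no overlap with another motif searched. The printed stretches of Hspa1a, at chr17:34972228-34972285, and of Hspa1b, at chr17:34959310-34959367 (both GRCm38.p6, minus strand), are identical, although the measured differences of the genes were log2 2.37 and 0.81. Dnaja1 (chr4:40722319-40722376, plus strand) was lower at the high dose and holds the same pattern of letters.
Hspa1a: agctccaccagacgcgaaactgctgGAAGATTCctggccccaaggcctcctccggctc
Hspa1b: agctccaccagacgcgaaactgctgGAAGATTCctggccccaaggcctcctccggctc
Dnaja1: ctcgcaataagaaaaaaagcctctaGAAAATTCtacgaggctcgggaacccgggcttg

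Metallothioneins are small cysteine-rich proteins that bind zinc and scavenge oxidants. Mt1 read 6753, 9536, 8097 and 6764 units at the low dose and 3631, 5604, 4052, 3239 and 3398 units at the high dose, 1.97-fold lower without overlap (adjusted p = 0.00061). Mt2, its neighbour and usual partner, read 12488 ± 2371 and 11784 ± 1649 units (log2 -0.08 ± 0.16; adjusted p = 0.75). The difference between the pair was not tested. Over the 9 measured genes of the metal response, 1 was lower (Mt1, or 2 genes without high-dose array 2) and 1 higher (Hmox1). Each count is 11.1% of the list, against 15.4% and 14.0% of all genes. A metal response element (TGCACNC or TGCGCNC) was found in the 250 bases upstream of 4 of 7 list members (57.1%), against 23.8% of all genes. That of Mt1 (chr8:94179041-94179088, plus strand, GRCm38.p6) shows it in capitals.
Mt1: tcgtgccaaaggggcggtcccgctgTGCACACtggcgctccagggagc

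Of 20 measured genes on the ATF4 list 9 were higher at the high dose and none lower, or 1 lower with quantile normalization. The median was 0.51 against -0.04 for all genes. These counts hold for the members of this list only. ATF4 is translated when initiation factor eIF2 is phosphorylated, and it transcribes genes for amino acid synthesis and transport. The serine pathway enzyme Psat1 read 1671, 1928, 1870 and 1707 units after the low dose and 5897, 5180, 5361, 5321 and 5013 units after the high dose. The groups were well apart and the fold was 2.97 (log2 1.57 ± 0.10; adjusted p = 1.4e-07). Psph, which completes serine synthesis, was 2.04-fold higher, with low-dose arrays between 653 and 711 units and high-dose arrays between 1271 and 1486 units. Phgdh, the entry enzyme, differed by log2 -0.07 and was not called.

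By their brightest probe sets, other members were likewise either higher or not called. Pck2, the mitochondrial phosphoenolpyruvate carboxykinase, read 111, 79.1, 108 and 85.4 units at the low dose. At the high dose it read 339, 297, 296, 338 and 277 units, 3.02-fold higher. Trib3, a pseudokinase that restrains ATF4, was 2.33-fold higher. Mthfd2, a mitochondrial folate enzyme, was 1.88-fold higher, and the bZIP partner Cebpg and the stress protein Nupr1 were both 1.71-fold higher. Atf4 itself, at 3012 ± 543 and 2908 ± 267 units, and Asns, asparagine synthetase, at 7687 ± 1359 and 7484 ± 1030 units, overlapped between the groups. Asns had another probe set at log2 -1.01, which was called lower. Outside this list, the amino acid transporters Slc38a2 and Slc38a4 were 2.34-fold lower and 2.49-fold higher. The stress-induced factor Atf3, counted here with the immediate-early genes, was 2.97-fold lower. Ddit3 (CHOP), a pro-apoptotic target, read 95, 74.6, 88.9 and 56.5 units and then 156, 165, 145, 19 and 114 units, with high-dose array 4 alone below the low-dose range (adjusted p = 0.6).

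Aminoacyl-tRNA synthetases, which charge tRNAs with amino acids, were higher in 12 of 26 cases and lower in 1 (median 0.34; the lower member was not called without low-dose array 1, 2 or 3 or high-dose array 1). Sars (seryl-tRNA synthetase) read 250.4, 322, 259.6 and 427 units at the low dose and 1046, 901, 763, 1164 and 1162 units at the high dose, 3.16-fold higher. Aars (alanyl), Mars1 (methionyl) and Lars (leucyl) were 2.54-fold, 2.51-fold and 2.40-fold higher, with adjusted p of 6.7e-07, 2.3e-05 and 2.1e-06. For Aars the arrays ran from 515 to 657 units at the low dose and from 1500 to 1638 units at the high dose. Cars, Yars, Tars and Gars were between 1.61-fold and 2.06-fold higher, with another probe set of Yars at log2 -0.32 and not called. Of the mitochondrial forms, Sars2, Fars2, Iars2 and Rars2 were not called by their brightest probe sets, although a dimmer probe set of Sars2 was lower by log2 0.93 (adjusted p = 0.034) and a further one was at -0.61, while Tars2 was higher by log2 1.00. Farsb, a phenylalanyl subunit, was lower by log2 0.39 while its partner Farsa was higher by 0.88. The call of Farsb was lost in 7 of 20 alternative settings (adjusted p between 0.055 and 0.16), 4 of them the leave-outs just named.

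The composite element read by ATF4 with C/EBP partners was searched as TGATGNAA (both strands), a motif chosen after the values were seen. It was present for 3 of 17 ATF4-list genes with a promoter (17.6%) and 3 of 19 synthetase genes (15.8%), against 3.9% of all genes. All called members that held it are printed, with the element in capitals as it reads on the gene's strand, where it appears as its reverse complement; none overlapped another motif searched. Positions in GRCm38.p6 are chr14:55540138-55540195 (plus), chr7:126625548-126625605 (minus), chr8:111033705-111033762 (plus), chr15:11399659-11399698 (minus) and chr6:55037946-55038000 (plus), in the order printed. The elements of Nupr1, Aars and Tars are the same 8 letters.
Pck2: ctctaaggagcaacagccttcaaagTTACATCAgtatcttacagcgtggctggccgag
Nupr1: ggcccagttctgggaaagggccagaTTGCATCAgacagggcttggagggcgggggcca
Aars: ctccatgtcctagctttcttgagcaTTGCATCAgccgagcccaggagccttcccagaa
Tars: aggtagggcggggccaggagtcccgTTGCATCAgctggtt
Gars: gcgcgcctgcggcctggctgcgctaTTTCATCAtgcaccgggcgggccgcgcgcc

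Endoplasmic reticulum chaperones and their regulators went the other way: 9 of 17 were lower and none higher (median -0.41), although 1 was higher without high-dose array 4. These proteins fold secreted proteins, and their genes are transcribed by Atf6 and Xbp1 when folding fails. Hspa5 (BiP), the main chaperone of the compartment, read 3685, 3607, 3830 and 3197 units at the low dose and 2075, 1756, 1767, 2147 and 1796 units at the high dose, 1.87-fold lower (adjusted p = 3.7e-05). The sensor Atf6 was 2.36-fold lower, and the disulfide isomerase Pdia3 2.11-fold lower. Dnajb9 and Dnajc3, Hsp40 partners of Hspa5, were 2.19-fold and 2.16-fold lower, while the other probe sets of Dnajc3 (-0.26 and -0.57) were not called. Manf, a secreted stress factor, was 1.54-fold lower. Xbp1 was lower by log2 0.45 with overlapping arrays, a call lost in 13 of 20 alternative settings, for instance without low-dose array 1 (adjusted p = 0.13). Pdia4 was at 0.60 and was not called.

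**Figure D4:**
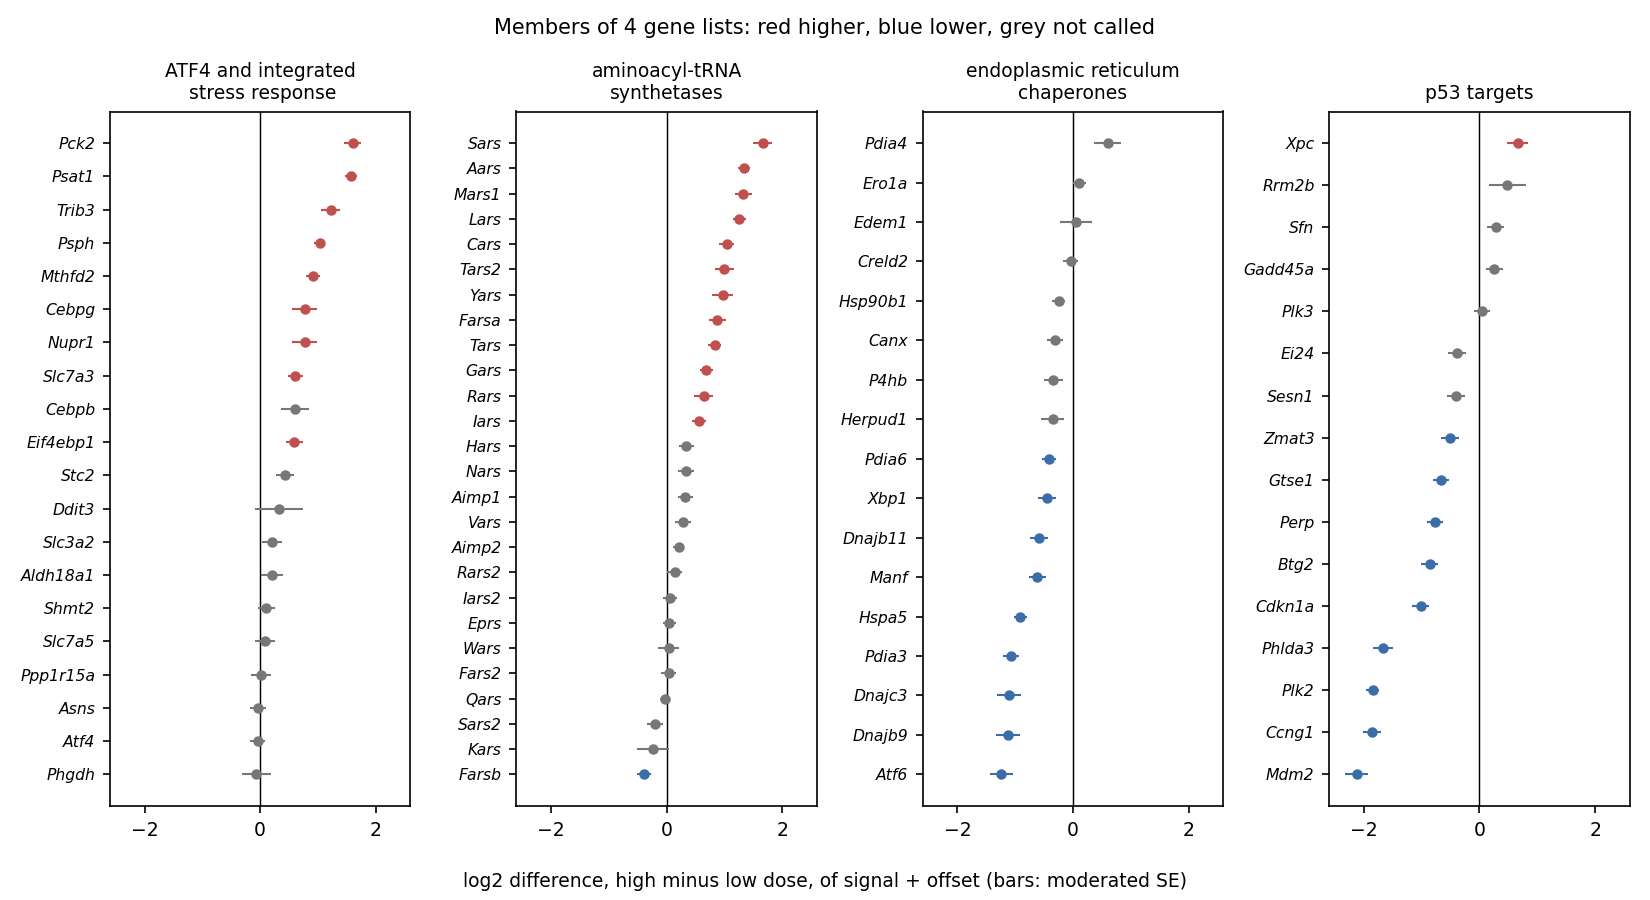
Log2 difference (high minus low dose) of every measured member of 4 lists, with bars of 1 moderated SE; red is called higher, blue called lower and grey not called. The ATF4 and synthetase members lie at or right of 0 with few exceptions, whereas the endoplasmic reticulum and p53 members lie mostly left of it.

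Nrf2 targets and glutathione genes were lower in 6 of 26 cases and higher in 2 (median -0.16). Nrf2, encoded by Nfe2l2, switches on genes that make and use glutathione, and Nfe2l2 itself was 1.53-fold lower. Hmox1, heme oxygenase, which degrades heme and is induced by oxidants, read 1073, 1270, 1047 and 1079 units at the low dose and 1906, 1876, 1607, 1503 and 1489 units at the high dose. The groups did not overlap (1.49-fold; adjusted p = 0.0018). Fth1, a ferritin chain that stores iron, was 1.47-fold higher, although its other probe set gave -0.78. Me1, which makes NADPH, read 288 ± 46.3 and 103 ± 33 units, 2.71-fold lower, and the transferase Gstp1 was 1.80-fold lower. Txnrd1, thioredoxin reductase, was 1.45-fold lower. Nqo1 read 159 ± 48.6 and 104 ± 23.2 units and was not called (adjusted p = 0.065). The antioxidant response element TGACNNNGC was found for 7 of 21 list members (33.3%) and 11.5% of all genes, and 3 of the 5 lower members with a promoter held it.

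Among peroxide-removing enzymes 5 of 19 were higher and 6 lower, the latter count being 3 without low-dose array 1, without high-dose array 1 or with scaling to a common median. Sod2, the mitochondrial superoxide dismutase, read 477, 348, 417 and 346 units and then 808, 712, 798, 859 and 939 units, 2.05-fold higher. Prdx3, the mitochondrial peroxiredoxin, was 1.45-fold higher. Gpx3, a secreted glutathione peroxidase, read 887, 642, 515 and 1043 units and then 163, 150.2, 137, 122 and 155 units, 4.86-fold lower (adjusted p = 1.1e-06). Txnip, the thioredoxin-binding inhibitor, was 2.48-fold lower, but its other probe set gave 0.02. Cat (catalase) read 271 ± 30.2 and 295 ± 25.5 units by its brightest probe set and was not called (adjusted p = 0.51), but its other probe set was lower by log2 0.61 (adjusted p = 0.011).

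Of 25 double-strand break repair and checkpoint genes 4 were higher (16%, against 14.0% of all genes) and none lower (median 0.06; 1 lower without low-dose array 3). These were Trp53bp1, which shields broken ends, Wrn, a helicase, and Mre11a and Rad50, which form the break-sensing complex. Trp53bp1 read 82.5 ± 11 and 167 ± 34.2 units (1.90-fold), and Rad50 319 ± 38.6 and 452 ± 20.7 units (1.41-fold). Atm, the damage kinase, was dim and overlapped (adjusted p = 0.089). Of 15 base excision repair genes 1 was higher, Nudt1, which removes oxidised nucleotides from the pool (1.58-fold), and 2 or 3 were higher without low-dose array 3 or high-dose array 4 or 5. Without low-dose array 3 or high-dose array 2 or 4, 1 was lower. Ogg1, which excises 8-oxoguanine, differed by log2 -0.43 and was not called. In mismatch and nucleotide excision repair 3 of 17 were higher (17.6%) and 2 lower (11.8%; 1 gene without high-dose array 1 or 3), against 14.0% and 15.4% of all genes. Ercc5, the XPG nuclease, read 341, 307, 362 and 331 units and then 139, 174, 138, 173 and 146 units, 2.11-fold lower.

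Pluripotency genes moved in both directions: 9 of 34 were higher and 10 lower. The core factors were split. Pou5f1 read 5437, 3326, 4683 and 5068 units at the low dose and 6468, 6304, 5289, 5743 and 5713 units at the high dose and was not called (log2 0.37 ± 0.14; adjusted p = 0.068). Nanog read 5672 ± 527 and 4959 ± 496 units by its brightest probe set (adjusted p = 0.24), but another probe set was lower by log2 1.16. Sox2 read 5713, 6099, 6516 and 4202 units and then 3514, 3003, 3014, 3260 and 2746 units, 1.79-fold lower without overlap (adjusted p = 0.00042). Tbx3, a T-box factor of naive pluripotency, was 3.19-fold lower, and Fbxo15 1.90-fold lower. Foxd3 was 2.90-fold lower, from 66.3 ± 21.9 to 16.1 ± 8.61 units.

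The members that were higher include Lefty1, a secreted antagonist of Nodal, at 233, 267, 265 and 269 units and then 929, 1175, 1068, 944 and 1028 units. This is a 3.86-fold difference (adjusted p = 3.3e-08). Dppa3, a germline and preimplantation gene, was 3.97-fold higher, with a low-dose mean of 23.4 ± 9.44 units, a dim level at which the offset shrinks the fold. Gbx2, a homeobox gene downstream of LIF signalling, was 2.70-fold higher, and Gdf3, a TGF-beta ligand, 1.67-fold higher. Esrrb read between 43.9 and 266 units at the low dose, a spread that covers the high-dose arrays.

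Some signalling ligands and receptors of the same cells also differed. In the Nodal and TGF-beta list 5 of 24 were higher (20.8%) and 5 lower (20.8%), against 14.0% and 15.4% of all genes. The lower count was 3 without low-dose array 1. Nodal, the ligand that Lefty1 blocks, read 967, 699, 698 and 945 units and then 294, 271, 374, 386 and 338 units, 2.43-fold lower, opposite in direction to Lefty1. Fst, the activin antagonist follistatin, was 5.19-fold lower. Of 24 FGF and LIF genes 4 were higher (16.7%), 2 without high-dose array 1, 3 or 4, and 5 were lower (20.8%). Fgf4, the ligand that drives exit from the naive state, was 1.74-fold lower, and its receptor Fgfr2, which is used in primitive endoderm, 2.39-fold lower. Lifr was 1.99-fold lower by its brightest probe set, while its other 3, at -0.10, -0.27 and -0.20, were not called. Fgf17 was among the largest rises (8.02-fold), from at most 30.7 units at the low dose to between 132 and 199.7 units.

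In the BMP list Id4 and Id2, helix-loop-helix inhibitors, were 3.62-fold and 2.09-fold lower, whereas Id1 was higher by log2 0.72 and Bmp4 1.75-fold higher. In all, 4 of 14 were lower (28.6%) and 2 higher (14.3%), against 15.4% and 14.0% of all genes. Dkk1, a secreted Wnt antagonist, read 142, 88.9, 88.7 and 94.6 units and then 9.82, 11, 22.5, 9.09 and 30.8 units, 4.31-fold lower. Of 19 Wnt genes 3 were lower (15.8%) and 1 higher (5.26%), or 2 higher without low-dose array 4 or high-dose array 2. Among 14 Notch genes 3 were lower (21.4%) and 2 higher (14.3%). The target Hes1 was 2.07-fold lower and the ligand Dll1 3.85-fold higher, from a dim 22.5 ± 22.2 units.

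Imprinted genes, which are expressed from the allele of 1 parent, were higher in 7 of 20 cases and lower in 1 (median 0.19). Cdkn1c, a cyclin-dependent kinase inhibitor expressed from the maternal allele, had the largest rise of any gene. It read 54.2, 26.5, 44.7 and 45.6 units at the low dose and 661, 547, 623, 755 and 691 units at the high dose, a 12.7-fold difference (log2 3.66 ± 0.17; adjusted p = 7e-09). Phlda2, its neighbour in the same imprinted cluster, went from 485 ± 35.9 to 1404 ± 102 units (2.85-fold). Ascl2, also of that cluster and needed in trophoblast, was 2.80-fold higher. Kcnq1, in the same cluster, differed by log2 -0.41 and was not called. Elsewhere, Meg3, a noncoding RNA, was 3.36-fold higher by its brightest probe set and 0.48 on the log2 scale by another that was not called, and Grb10 was 3.20-fold higher. Peg10, expressed from the paternal allele, was 2.84-fold lower, and Igf2 was not called.

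Among the other large rises, S100a6, a calcium-binding protein of proliferating cells, read 38.7, 73.7, 69.6 and 53.1 units and then 654, 706, 677, 605 and 646 units, 9.82-fold higher. Ina, a neuronal intermediate filament, Gap43, a growth-cone protein, and Sox11, a neural progenitor factor, were 4.20-fold, 4.17-fold and 3.97-fold higher, and the second probe set of Sox11 gave 1.26. Nes and Tubb3, also neural markers, were not called (0.37 and -0.04). Of the 17 mesoderm, ectoderm and neural markers 4 were higher (23.5%) and 2 lower (11.8%), against 14.0% and 15.4% of all genes. Plac8, a cysteine-rich protein, read 319.7, 370.2, 383 and 261 units and then 1809, 2041, 1655, 1584 and 1344 units (4.94-fold; adjusted p = 9e-08). Calml4, Ltb and Slc27a1 were also higher at the high dose, with low-dose means all under 28 units. Rarg, a retinoic acid receptor, read 42.6 ± 40.3 units at the low dose and 173 ± 36.5 units at the high dose. Cds2, an enzyme of phospholipid synthesis, was 4.18-fold higher.

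Cell cycle genes were called in both directions. Of 41 S-phase genes 11 were higher (26.8%) and 6 lower (14.6%), against 14.0% and 15.4% of all genes. Their median was 0.09. The rises were led by Uhrf1, which guides maintenance DNA methylation, at 999 ± 65.3 and 2134 ± 165 units (2.12-fold). Prim2, a primase subunit, and Orc2, of the origin recognition complex, were 1.73-fold and 1.71-fold lower. The helicase subunits Mcm2, Mcm3, Mcm4 and Mcm7 were not called by their brightest probe sets, but another probe set of Mcm3 was lower by log2 0.59 (adjusted p = 0.0019). Of 37 mitotic genes 6 were higher (16.2%, against 14.0% of all genes), 3 without low-dose array 3. The 4 that were lower were none without low-dose array 1 or 4 or high-dose array 1 or 2, and 1 or 2 without low-dose array 3 or high-dose array 3 or 5. Rb1, the retinoblastoma gate of S-phase entry, was 2.09-fold lower. Among apoptosis regulators 4 of 28 were higher and 7 lower. Apaf1, the apoptosome scaffold and a p53 target in other settings, read 536, 519, 524 and 498 units and then 194, 169, 224, 237 and 209.5 units, 2.45-fold lower (adjusted p = 4e-06). The survival gene Bcl2l1 was 1.63-fold lower and the death-promoting Bcl2l11 1.46-fold higher.

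Of 20 glycolysis genes 10 were higher and 2 lower, 1 without low-dose array 1 (median 0.30). Several of these are bright, and 5 higher members were left when probe sets above 2000 units were not tested. Fewer members were then measured, and their median was 0.10. With quantile normalization the list median was 0.19, and with scaling to a common median 0.41. Hk2, hexokinase, was 1.91-fold higher (818 ± 123 against 1561 ± 79.9 units), Eno3 2.31-fold and Tpi1 1.74-fold higher. Slc2a3, the high-affinity glucose transporter, was opposite, at 2632, 3615, 2646 and 2976 units and then 1124, 1216, 1093, 1257 and 1130 units (2.52-fold lower; other probe set -0.47). In the hypoxia list 7 of 15 were higher, with Vegfa at 1.64-fold and Tfrc, the transferrin receptor, at 2.40-fold, and 5 were lower. Mitochondrial ribosomal proteins were higher in 21 of 59 cases and lower in 2 (median 0.25; 1 lower without low-dose array 1 or 2 or high-dose array 1, 2 or 5), led by Mrpl23 at 382 ± 49.6 and 1037 ± 124 units.

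Respiratory chain genes were higher in 16 of 66 cases, 8 without probe sets above 2000 units, and lower in 6, a count of 3 without high-dose array 3 or 5. The median was 0.12, and -0.0 among the members left without probe sets above 2000 units. Cox6b2, a germ-cell form of a cytochrome oxidase subunit, was 2.52-fold lower, with its other probe sets at log2 -3.00 (called) and 0.54 (not called). Proteasome genes were higher in 17 of 44 cases and lower in none (median 0.25), or 1 lower without low-dose array 2 or 4. Without probe sets above 2000 units 10 were higher and the median was 0.21. Psmb6, a catalytic subunit, read 1177 ± 195 and 2353 ± 437 units, and Psmd13, a lid subunit, 657 ± 66.7 and 1284 ± 127 units. The median of 28 cytosolic ribosomal proteins was 0.17, and it turned to -0.10 with quantile normalization. Cholesterol synthesis had 4 higher (23.5%) and 2 lower (11.8%) of 17, against 14.0% and 15.4% of all genes. Fdps, farnesyl diphosphate synthase, was 2.16-fold higher by its brightest probe set, with its other 2 at 0.60 and -0.63.

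Chromatin silencing genes were higher in 10 of 35 cases and lower in 4 (median 0.12). Ezh2, the Polycomb methyltransferase, went from 585 ± 99.9 to 1325 ± 173 units (2.25-fold) and Cbx5, which encodes HP1 alpha, from 285 ± 40 to 722 ± 34.9 units (2.49-fold). The remodeller Chd4 and the deacetylase Hdac1, both of the NuRD complex, were 1.86-fold and 1.65-fold higher. Bmi1, a Polycomb ring-finger protein, read 195, 196, 338 and 188 units and then 70, 87.8, 42.9, 42.7 and 38 units, 3.62-fold lower. The core Polycomb members Eed and Suz12 were not called by their brightest probe sets (0.08 and -0.11), but another probe set of Suz12 was lower by log2 0.74 (adjusted p = 0.005) and a further one, at -0.44, was not called.

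**Figure D5:**
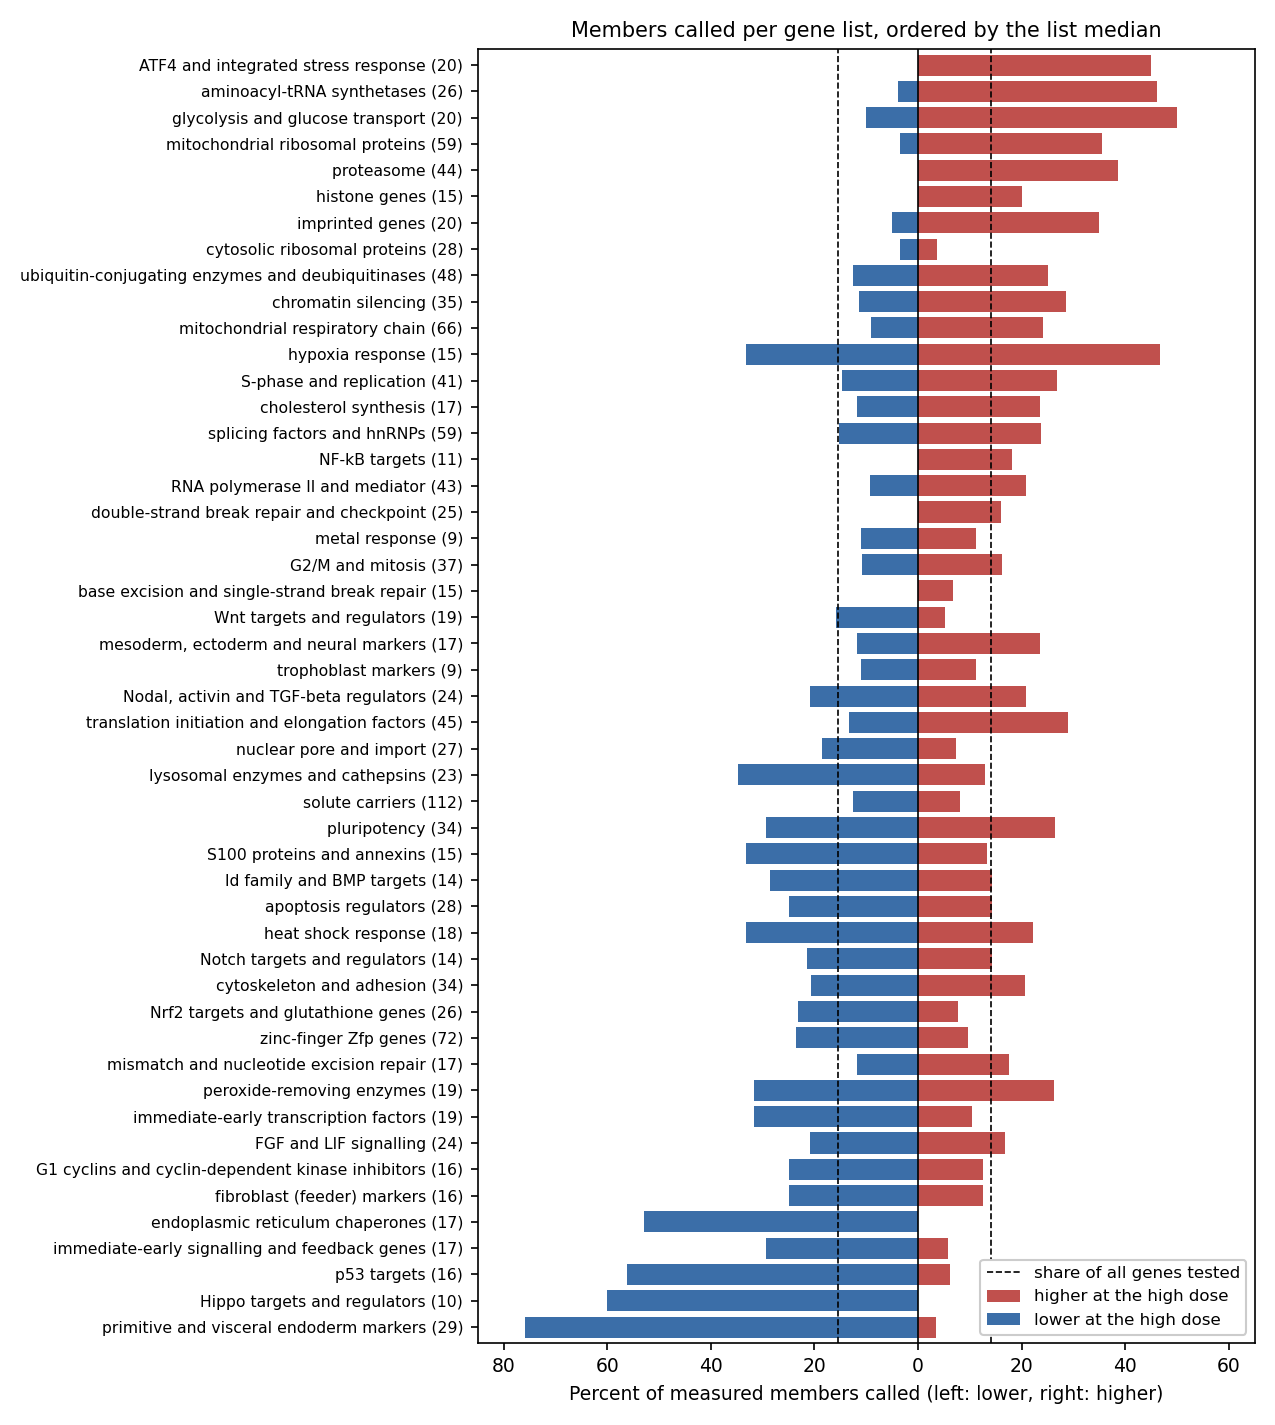
Percent of measured members called lower (blue, left) and higher (red, right) at the high dose for the 49 gene lists, ordered by list median with the number measured in brackets; dashed lines mark the shares among all genes tested (15.4% lower and 14.0% higher). Endoderm markers, Hippo genes and p53 targets reach far past the left line, and ATF4, synthetase and glycolysis genes past the right line.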

How the data were processed

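RNA of 9 peroxide-treated samples was compared, 5 high dose against 4 low dose, grouped by sample title. The deposited values are intensities on a linear scale, MAS5 signals per the submitters' processing notes; the sources used here do not give the version, scaling target, detection calls or scan dates. The trimmed means of the arrays (2% off each end) were within 0.0172%, so the deposited scaling was kept. Arrays have no read depth, and their number limits the precision. The log2 of each signal plus 10.6 units (the 20th percentile of values) was analysed, which understates the differences of dim genes. The 66 control probe sets were left out, as were probe sets under the 30th percentile of mean level, leaving 8695 of 12488. limma 3.58.1 in R 4.3.3 (lmFit, eBayes with a trend) gave two-sided p-values, adjusted by Benjamini-Hochberg. SE are moderated.

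Symbols came from a platform annotation updated through RefSeq gene records (10833 probe sets had 1 symbol, of which 10817 matched by Entrez number). The brightest tested probe set stood for each gene; 1175 genes had more than 1. Groups, tests, the 49 lists and their members were chosen with earlier results of these data known. Genes named are the 15 largest rises and 15 largest falls without overlap whose higher group mean was at least 100 units, up to 4 called members per list (or the 2 largest where none was called), and set stress and pluripotency genes; Gapdh was not measured by a probe set with 1 symbol. Another 83 were named after their values were seen. On simulated data with 200 of 8695 probe sets changed, the fit called 71% of those changed by log2 1 and 100% of those changed by log2 2, and made 9 false calls. The simulated noise was independent between probe sets, and fewer were changed than the 2426 called in the data. These rates therefore need not hold for the data. Array measures were compared by exact permutation tests (scipy 1.17.1). Promoter sequences are RefSeq's, GRCm38.p6. Alternatives tried were other scalings, offsets, filters and variance models, the replicate number as a block, and leaving out each array.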

Additional observations from a re-analysis of the deposited data

Results flagged for a closer look

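In 562 groups of 4 or 5 arrays, 27 had 1 array far from the others of its group (Dixon's test at the 95% level), where chance gives about 1 in 20. Of these, 7 fell on high-dose array 4, 5 on high-dose array 2 and 5 on low-dose array 1.

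On high-dose array 4, Col4a1 (197 units), Zfp36l1 (852) and E2f5 (236) were the highest, and Tpi1 (4590), S100a10 (1726), Ddit3 (19) and Atf4 (2445) the lowest, of the 5 high-dose arrays. On high-dose array 2, Gap43 (74.4 units), H1f5 (16.7) and Krt19 (74.2) were the lowest, and Bmp4 (641) and Actb (745) the highest. The other 4 high-dose arrays read Actb between 87.7 and 159 units. Low-dose array 2, which was not flagged, read Actb at 1158 units, against 177 to 281 units on the other low-dose arrays. Dffb (50.8 units) was highest on high-dose array 5, Perp (213) highest on high-dose array 3 and Bcl2l1 (281) lowest on high-dose array 1.

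On low-dose array 1, Lefty1 (233 units), Cdc20 (3027) and Bag3 (163) were the lowest and Dkk1 (142) and Prdx3 (697) the highest of the 4 low-dose arrays. Klf4 (3737 units) and Hmox1 (1270) were highest and Eif3l (3472) lowest on low-dose array 2. Rpa1 (1458 units) and Bmi1 (338) were highest on low-dose array 3. Tpm4 (1517 units) was highest and Pdia4 (297) lowest on low-dose array 4.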

How the results depend on the processing

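The number of probe sets called (2426) stayed within 1.5 times under each of the 20 alternative settings, between 2015 without low-dose array 3 and 2474 with array quality weights. Leaving out 1 array at a time gave 2015 to 2289. Replicate numbers do not pair the samples by the labels. The deviations of same-numbered arrays correlated at -0.041, 0.154, 0.058 and 0.111, and those of different-numbered arrays between -0.127 and 0.109. Whether same-numbered arrays shared a run was not tested. With the replicate number as a block 2339 probe sets were called. The split was 1425 higher against 880 lower after median scaling, compared with 1132 against 1294 as deposited. Of 241 named genes called, 218 kept the call in every setting that tested them, 23 lost it in at least 1, and none changed sign while called. With scaling to a common median, Ccnd1 (adjusted p = 0.068), E2f5 (0.091) and Hmgcs1 (0.084) lost it by limma. The signal of a dim probe set, near the offset of 10.6 units, limits its fold.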

Other observations

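Of 23 lysosomal genes 8 were lower at the high dose and 3 higher, with a median log2 difference of -0.05 against -0.04 for all genes. Ctsl, a cathepsin, went from 2660 ± 325 (SD, n = 4) to 888 ± 117 units (n = 5), 2.97-fold lower without overlap. Ctsc and Ctsh, also cathepsins, were 2.89-fold and 2.82-fold lower, with the other probe sets of Ctsc at log2 -0.94 (called) and -0.32 (not called). Lgmn, an asparaginyl endopeptidase, was 2.55-fold lower. Napsa, an aspartic protease, was opposite, 1.89-fold higher (adjusted p = 0.0001, limma). Ctsh is also on the endoderm list, and the endoderm markers moved the same way; their part in these values was not tested. Among cytoskeletal and adhesion genes 7 of 34 were higher (20.6%) and 7 lower (20.6%), against 14.0% and 15.4% of all genes. The higher count was 4 without low-dose array 2. The claudins Cldn6 and Cldn4, tight junction proteins, were 2.39-fold and 1.90-fold higher. Itga6, a laminin-binding integrin, and Tpm4, a tropomyosin, were 2.26-fold and 2.11-fold lower.

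Among 112 solute carriers 9 were higher (8.04%) and 14 lower (12.5%), both under the 14.0% and 15.4% of all genes. Slc25a20, the mitochondrial carnitine carrier, read 694 ± 121 and 199 ± 13.9 units, 3.33-fold lower. Of 15 S100 and annexin genes 2 were higher (13.3%) and 5 lower (33.3%), the latter count being 3 without low-dose array 2 or high-dose array 5. Anxa8 was 3.84-fold lower while S100a6 was 9.82-fold higher. Ube2d3, a ubiquitin-conjugating enzyme, was 2.64-fold lower, and its other probe set gave log2 -1.44. Of 59 splicing genes 14 were higher (23.7%) and 9 lower (15.3%). The higher count was 8 or 9 without low-dose array 2 or 4 or high-dose array 1, 3 or 4. Srsf3, a splicing factor, was 1.89-fold lower by 1 probe set and log2 -1.12 by the other. Of the general transcription genes, Gtf2i was 2.23-fold higher by its brightest probe set and log2 0.56 by the other. The probe sets of Med22, a mediator subunit, differed in direction (1.71 and -0.83, log2).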
